A study of Mus musculus with 8 samples.

Results

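Sox2, Hes1, Hes5, Sox9, Nfia, Olig1, Olig2, Sox10 and Nkx2-2 encode transcription factors that keep neural progenitors in their state or direct them toward the astrocyte or the oligodendrocyte fate. These 9 genes, of 21887 protein-coding genes, were taken by name. All deposited regions that shared at least 1 bp with a gene or with the 5000 bp to each side were assigned to it, which gave 123 of the 220894 regions of the series. The samples were 8 mouse cell lines grown in serum-containing medium and profiled by bisulfite sequencing after capture with a mouse methylation kit. From brain tumours came 4 lines with mutant IDH and 2 with wild-type IDH, the pair labelled RAS glioma. The remaining 2 were IDH wild-type astrocyte lines that had been immortalized, and 1 of these expressed exogenous wild-type IDH1. All lines came from N::TVA mice on a mixed C57Bl/6, 129 and FVB/n background that carried floxed Cdkn2a (Cdkn2alox/lox). TVA is the receptor that lets avian RCAS vectors infect mouse cells. Mice that gave the IDH mutant lines and the astrocytes also carried floxed Atrx (Atrxlox/lox) and another floxed allele, whereas those that gave the wild-type tumours are labelled with floxed Cdkn2a alone. IDH status therefore cannot be told apart from mouse genotype within the tumour lines, or from cell type when mutant tumour lines are set against astrocyte lines. Each line is 1 culture.

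Sox2 maintains the undifferentiated state of neural stem cells, and the repressors Hes1 and Hes5 are the main targets through which Notch signalling holds back differentiation. Sox9 and Nfia act at the switch from neuron to glia production and on into astrocyte formation. Olig2 specifies oligodendrocyte precursors, Olig1 and Nkx2-2 act in their maturation, and Sox10 switches on myelin genes. DNA methylation of CpG sites at such genes can follow the fate of a lineage, and mutant IDH makes a metabolite that inhibits the enzymes that remove it.

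The deposited values were 1 list for the whole series, in which a region has a position and a single score. The score is a whole number of at least 100, it carries no unit in the sources used here, and it is not a methylation level. No value belongs to a single line, so IDH mutant lines were not compared with wild-type lines, no line's depth is known, and replicate error cannot be given. Across regions, which are not replicates, wider ones scored higher among the 123 (Spearman rho = 0.821), much as in the whole list (rho = 0.803). Each region was therefore ranked among all regions whose width differed by at most 50 bp, which gives its like-width percentile. The comparison sets held 21 to 38608 regions, with the smallest for the widest region, at Hes1. Scores of narrow regions lie close to the lowest, 100, with a like-width median of 131 at 110 bp. A few score units therefore decide their percentiles.

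**Figure D1:**
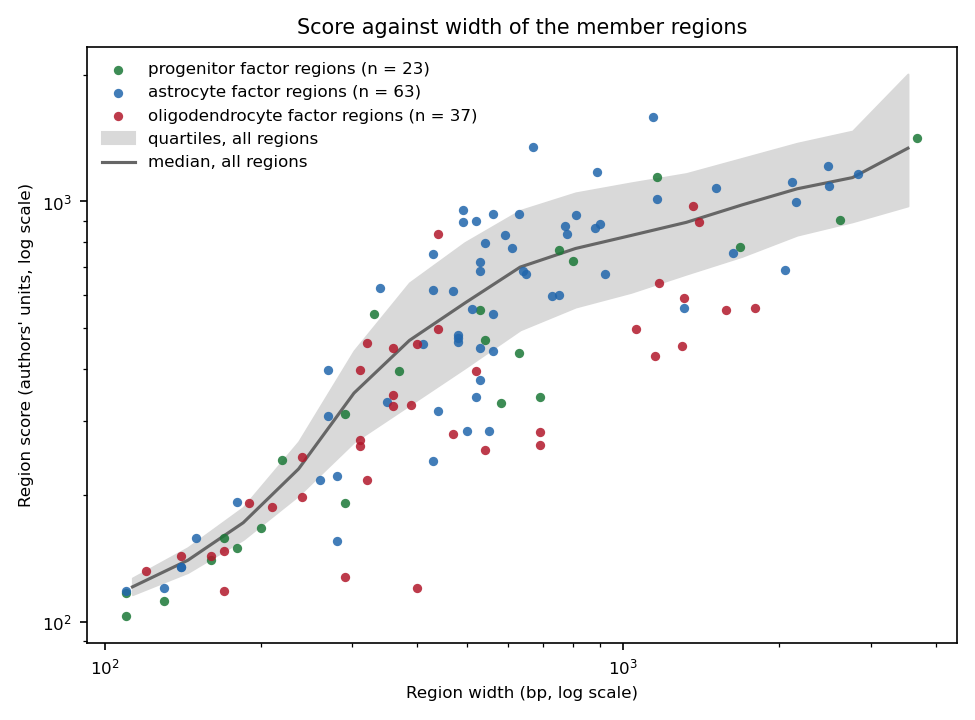
Score of each of the 123 member regions (vertical, authors' units, log scale) against its width in bp (horizontal, log scale), coloured by the role of the gene, with the median and quartiles of all regions in 15 bins of width. Points of oligodendrocyte factors wider than 1000 bp lie below the median line with 1 exception, and those of astrocyte factors, 56 of 63 from Nfia, spread to both sides.

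Promoters are the sites at which CpG methylation has been tied most closely to silencing. A sequence of 300 bases, from 250 before to 50 after a transcription start, was listed in RefSeq (GRCm38.p6, the assembly of mm10) for 5 of the 9 genes. The sequences of Sox2, Hes5 and Olig2 are shown because a deposited region reached into each of them, and that of Nfia because none did. Capitals mark CpG sites, and base 251 is the first transcribed base.
Sox2 (chr3:34649745-34650044, + strand): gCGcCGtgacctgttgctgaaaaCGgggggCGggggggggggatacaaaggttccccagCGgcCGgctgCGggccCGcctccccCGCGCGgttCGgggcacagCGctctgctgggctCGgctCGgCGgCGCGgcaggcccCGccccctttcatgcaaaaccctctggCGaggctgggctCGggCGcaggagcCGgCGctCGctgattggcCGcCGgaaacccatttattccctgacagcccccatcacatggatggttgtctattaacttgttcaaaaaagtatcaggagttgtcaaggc
Hes5 (chr4:154960673-154960972, + strand): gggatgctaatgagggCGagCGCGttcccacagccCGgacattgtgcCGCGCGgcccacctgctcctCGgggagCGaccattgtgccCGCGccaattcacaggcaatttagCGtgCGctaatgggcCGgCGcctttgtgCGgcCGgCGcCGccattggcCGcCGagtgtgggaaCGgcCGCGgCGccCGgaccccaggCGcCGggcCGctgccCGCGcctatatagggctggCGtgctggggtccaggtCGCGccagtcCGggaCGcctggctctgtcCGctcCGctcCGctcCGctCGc
Olig2 (chr16:91225300-91225599, + strand): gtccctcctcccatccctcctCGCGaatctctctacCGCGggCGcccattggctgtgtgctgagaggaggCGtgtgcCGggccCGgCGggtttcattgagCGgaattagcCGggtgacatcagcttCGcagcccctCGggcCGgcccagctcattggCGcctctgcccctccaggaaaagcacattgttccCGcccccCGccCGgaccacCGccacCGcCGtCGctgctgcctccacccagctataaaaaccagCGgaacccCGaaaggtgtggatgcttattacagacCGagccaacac
Nfia (chr4:97581693-97581992, + strand): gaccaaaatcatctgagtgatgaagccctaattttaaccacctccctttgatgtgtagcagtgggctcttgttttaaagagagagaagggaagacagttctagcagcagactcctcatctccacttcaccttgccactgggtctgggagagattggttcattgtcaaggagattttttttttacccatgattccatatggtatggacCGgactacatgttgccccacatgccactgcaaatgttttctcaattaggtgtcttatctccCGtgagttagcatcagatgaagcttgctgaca

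Regions touched the edges of these promoters and left most of their CpG sites outside. The Sox2 promoter has 27 CpG sites, and a region with a score of 117 covered bases 1 to 46 with 4 of them. The Hes5 promoter is the richest in CpG, with 41 sites, and a region with a score of 112 covered bases 1 to 88 with 10 of them. The Olig2 promoter has 25 sites, and a region with a score of 452 covered bases 232 to 300, across the transcription start, with 3 of them. In these 3 promoters together, 17 of 93 CpG sites lay inside a region.

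A region over the promoter was thus found at 3 of 5 members, against 60.3% of 17492 protein-coding genes with a promoter entry, a share near that background. At 0 of 5 members was the promoter wholly inside a region, against 27.9% of those genes. The covered stretches of 46, 88 and 69 bp at Sox2, Hes5 and Olig2 were short beside the median of 259 bp over 12401 covered promoters, of which 12.7% had at most 88 bp inside regions. Of the 3 regions, that at Olig2 alone scored 200 or more.

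Across all genes, coverage differed with CpG content. When 21263 promoters were ordered by CpG sites and cut into 4 equal sets, Sox2, Hes5 and Olig2 fell into the set with the most (24 to 67 sites), of which 68.4% had a region, against 89.1% in the set next to it (13 to 24 sites), 58.6% in the set after that (4 to 13 sites) and 17.2% in the set with the fewest (0 to 4 sites). The Nkx2-2 promoter, with 17 CpG sites (chromosome 2, 147186353 to 147186652, - strand), had no region, and the nearest lay 283 bp away with a score of 147. The listed Nfia promoter has 2 CpG sites and a GC content of 44.7%, against 66.3% at Sox2 and 72.7% at Hes5. Its nearest region lay 1573 bp away with a score of 135. In the list Nfia has 1 start, which lies inside the gene as annotated, as do those listed for Hes5 and Nkx2-2. Promoters at other starts of these genes, if any, were not examined.

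Of the motifs searched on both strands, TGGGAA, the core that the Notch effector RBPJ recognises, stood in the Hes5 promoter at base 169 and, on the opposite strand, at base 25, counted from the 5′ end of the sequence shown. The second of these lies in the covered stretch. TGGGAA occurs in 24.5% of all promoters of this length. The box CACNAG, which Hes factors bind, was found in the Nkx2-2 promoter at base 263 and in 41.9% of all promoters, and TATAAA in the Olig2 promoter at base 243, inside the covered stretch, and in 12.6% of all promoters.

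Within 1000 bp of a gene end, 8 of the 9 genes had a region, against 76.5% of protein-coding genes, and Nfia was the exception. Sox9 had regions at its lower-numbered end alone and Nkx2-2 at its higher-numbered end alone, and the other 6 genes had regions at both ends.

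Most member regions outside Nfia scored below the median of their width, whereas Olig1 had 2 of 4 regions above it and Nfia 31 of 56. Of all 123 regions, 44 (35.8%, exact 95% binomial interval 27.3 to 44.9) scored above the median of like-width regions, against 50.8% of all regions of the list and 40.5% of the 33611 regions within 1000 bp of a protein-coding gene end. The 8 genes other than Nfia had 13 of 67 regions above that median (19.4%, interval 10.8 to 30.9), and 22 of 67 (32.8%) above the median of like-width regions at gene ends. Like-width percentiles under 10 belonged to 19 of the 123 regions, 18 of them outside Nfia. The share was 9.15% over all regions and 15.5% over regions within 1000 bp of a protein-coding gene end. Percentiles above 90 belonged to 2 member regions, both in Nfia, against 7.23% of all regions and 5.26% of those at gene ends. Intervals cover counting error only, and neighbouring regions of a gene are not independent.

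By role, progenitor factors had 5 of 23 regions above the like-width median (21.7%, exact interval 7.46 to 43.7), astrocyte factors 31 of 63 (49.2%, interval 36.4 to 62.1) and oligodendrocyte factors 8 of 37 (21.6%, interval 9.83 to 38.2). Set against like-width regions at gene ends, the shares were 43.5%, 58.7% and 32.4% in the same order of roles, and without width matching they were 39.1%, 66.7% and 24.3%, so the low share of progenitor factors depends on the comparison regions. The median like-width percentiles were 36.8, 48.6 and 25.6 in the same order of roles. The value for astrocyte factors rests on Nfia: at Sox9, the other gene with that role, 0 of 7 regions lay above the median and the median percentile was 28.1. No difference between roles was tested, since regions of a gene are not replicates and the roles hold 2 to 4 genes. In order of median percentile the genes ran Nkx2-2 (19.0), Olig2 (23.5), Sox2 (27.4), Sox9 (28.1), Hes5 (29.3), Sox10 (33.7), Hes1 (46.1), Olig1 (55.5) and Nfia (57.4), and the ranges of their single regions overlapped for all neighbours in this order.

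The order changed when regions were ranked among those within 5 Mb of the gene, which could be done where at least 20 were of like width. The medians were then 21.7 over 6 regions at Sox9, 22.0 over 6 at Olig2, 23.3 over 8 at Sox2, 32.6 over 12 at Nkx2-2, 40.6 over 8 at Sox10, 45.8 over 8 at Hes5, 47.1 over 4 at Hes1, 49.0 over 46 at Nfia and 66.8 over 3 at Olig1. Over the same regions the medians in the whole list were 18.6 at Sox9, 24.3 at Olig2, 27.4 at Sox2 and 29.7 at Nkx2-2. They were 31.8 at Hes5, 33.7 at Sox10, 47.1 at Hes1, 57.9 at Nfia and 64.2 at Olig1. For these regions the order in the whole list thus differed from the local order only in the places of Hes5 and Sox10. The lowest place of Nkx2-2 holds for its 16 regions in the whole list. It does not hold for the 12 regions that could be ranked locally, by either ranking.

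Genes of like length put these medians in place. Each gene was set against protein-coding genes with at least 4 regions whose window, the gene with 5000 bp to each side, had a length within 20% of its own. For the 8 shorter members, the comparison genes had a middle value of 38.3 to 44.9, below 50, with lower quartiles of 25.3 to 31.9 and upper quartiles of 52.6 to 58.1. For Nfia the middle value was 56.3. Among their comparison genes the members ranked at 6.9% (Nkx2-2), 21.4% (Olig2), 28.2% (Sox2), 29.4% (Sox9) and 31.3% (Hes5). Sox10 ranked at 36.3%, Nfia at 55.9%, Hes1 at 63.8% and Olig1 at 77.4%. Of the 9 medians, 6 lay between the quartiles, those of Nkx2-2 and Olig2 lay below the lower quartile, and that of Olig1 lay above the upper.

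**Figure D2:**
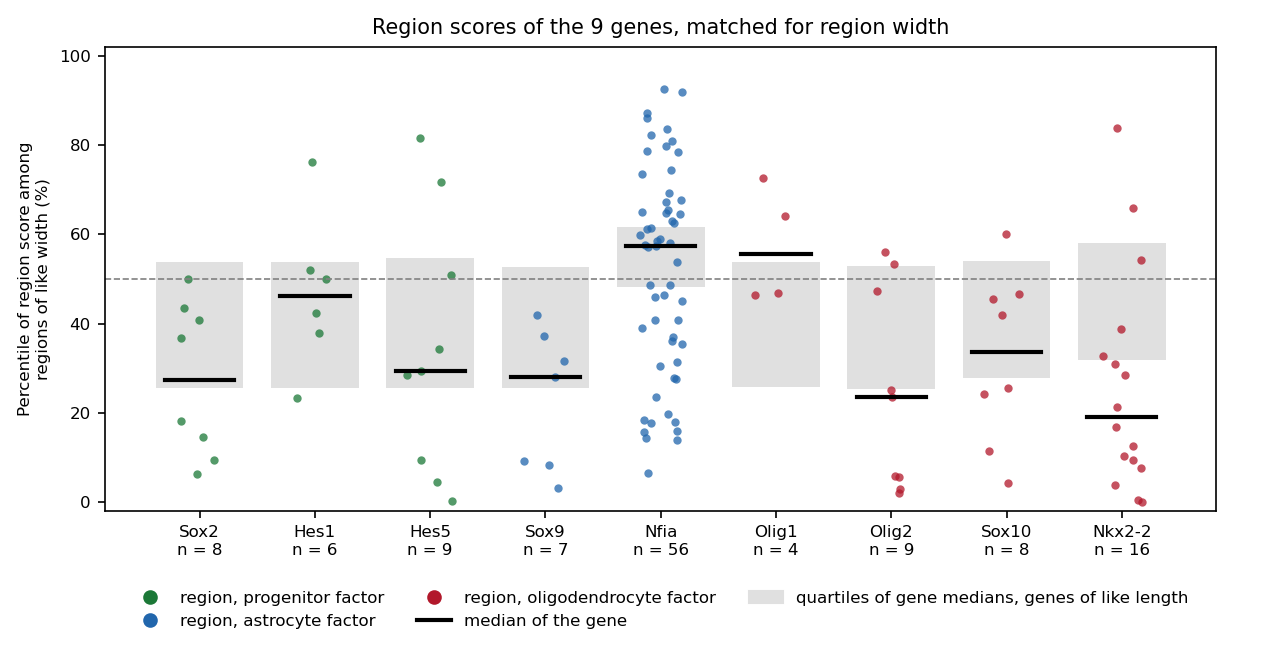
Like-width percentile of each region (vertical, %, points) at the 9 genes (horizontal, ordered by role, with the number of regions), with the median of each gene as a black line and, in grey, the quartiles of the medians of protein-coding genes of like length. The highest points of Sox2 and Sox9 lie at 50 and 41.8, those of Nfia reach 92.6, and the median of Nkx2-2, at 19.0, lies under its grey box.

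Among the progenitor factors, Sox2 (chromosome 3, 34649995 to 34652461) had 8 regions, all inside the long non-coding gene Sox2ot, which encloses it. From the lower-numbered side to the higher, they scored 436, 766, 332, 117, 140, 342, 396 and 721. The 2 regions nearest the transcription start, with scores of 117 and 140, were also the narrowest, at 110 and 160 bp. They stood at percentiles 14.6 and 36.8, with like-width medians of 131 and 150. The regions next to these 2 lay further below the median of their width. That of 580 bp, which begins 1114 bp before the start, scored 332 against a median of 657 (percentile 9.4). That of 690 bp, which begins 486 bp after the start, scored 342 against 732 (percentile 6.3). The highest, 766 at 34647481 to 34648230, matched the median of its width.

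Hes1 (chromosome 16, 30065357 to 30067796) had the widest region of the 9 genes. It spans 3690 bp at 30059631 to 30063320, beside the gene, with a score of 1417, at the median of the 21 regions of like width. A region of 2620 bp crossed the lower-numbered end with a score of 905 (percentile 23.4). The other regions scored 158, 551, 1145 and 167, and that with 1145, which begins 3454 bp from the lower-numbered end and beyond the other, had the highest percentile, 76.2.

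Hes5 (chromosome 4, 154960626 to 154962372) had 9 regions, in order 242, 312, 541, 112, 150, 192, 780, 103 and 468. The 3 regions on its lower-numbered side were at percentiles 71.8, 50.8 and 81.6, above the median of their width, and the 6 regions from the gene onward were at 4.4, 34.2, 9.3, 28.5, 0.3 and 29.3, all below it. The last 3 of these overlap Pank4, the gene that begins 1750 bp beyond Hes5. Hes5 lies in the end of chromosome 4 beyond 120 Mb, where 38.2% of 6610 regions scored above the like-width median.

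Among the astrocyte factors, Sox9 (chromosome 11, 112782210 to 112787757) had 7 regions, which scored 996, 333, 241, 472, 156, 285 and 217 from the lower-numbered side on. All of them lay below the median of their width, at percentiles of 3.2 to 41.8. They ended inside the gene, and the following 7387 bp to the edge of the window (112785371 to 112792757), the rest of the gene included, held no region. This was the longest empty stretch among the 8 shorter genes.

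**Figure D3:**
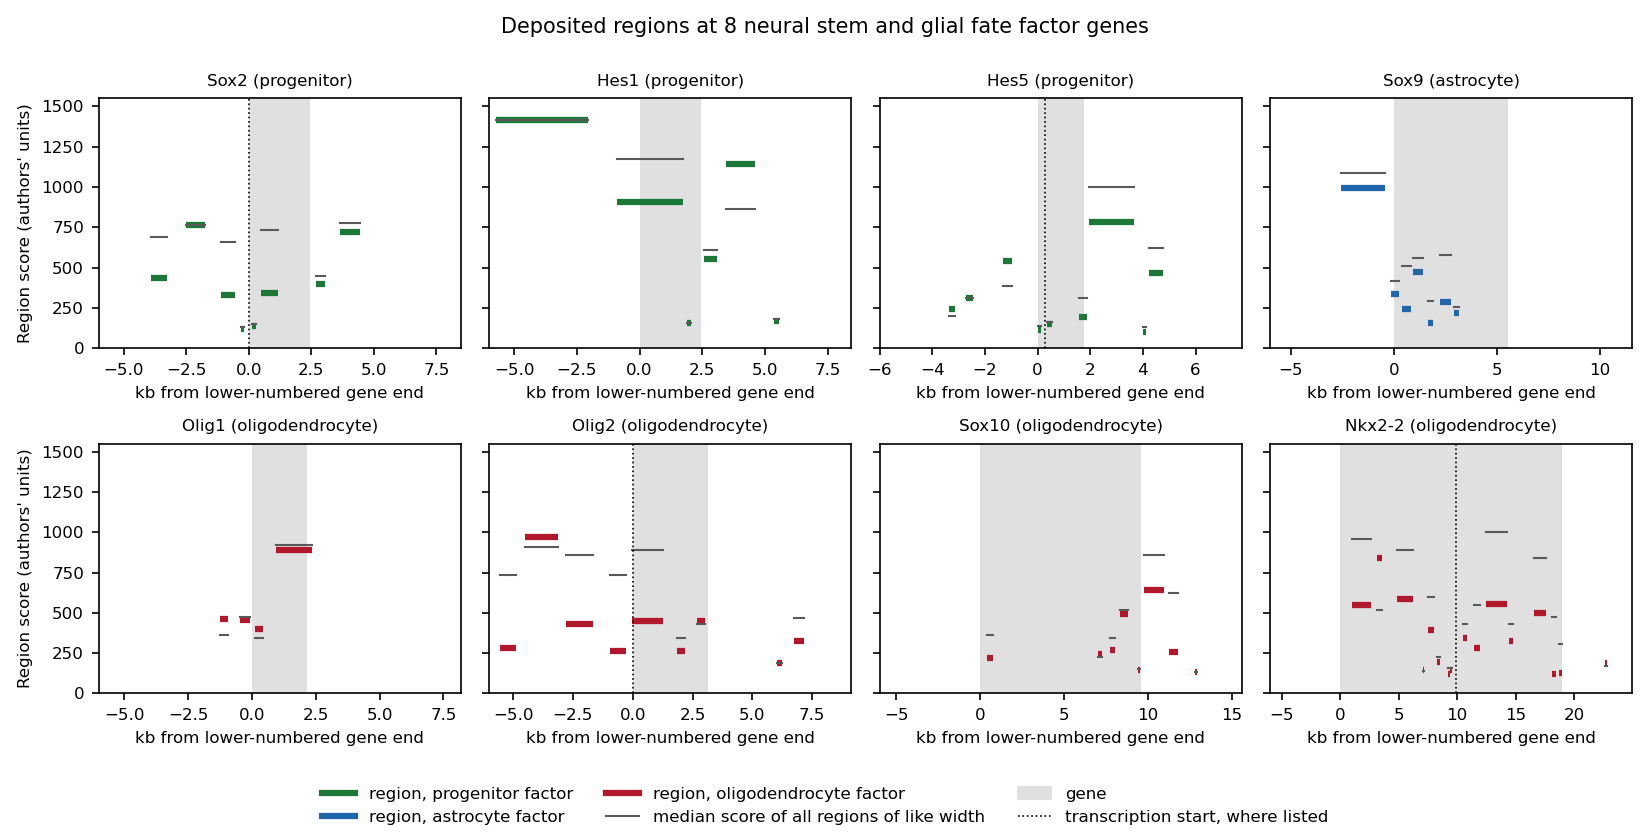
Regions at 8 genes as bars at their score (vertical, authors' units) and position in kb from the lower-numbered gene end (horizontal), coloured by role, with a thin line at the median score of regions of like width, the gene in grey and the listed transcription start dotted. Bars of Sox9 lie under their thin lines throughout, those of Nkx2-2 under them at 13 of 16 regions, and the 3 left-hand bars of Hes5 lie above theirs.

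Nfia (chromosome 4, 97578066 to 98118876) differed in kind from the others, as a gene of 540811 bp with all of its 56 regions inside it. Its scores ran from 118 to 1588 with a median of 677.5, and 31 regions scored above the median of their width. The highest, 1588 at 97836241 to 97837380, stood at percentile 92.6, and the next, 1350 at 97899991 to 97900660, at 91.8. Regions crowded in the middle of the gene: its 5 equal parts, counted from the lower-numbered end, held 8, 17, 17, 8 and 6 regions. The median percentile of these parts was 66.6, 39.0, 61.3, 58.5 and 33.4, so the crowded parts were not alike in score.

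Of the Nfia regions, 5 were at least 2000 bp wide, with scores of 1212, 1165, 1087, 1115 and 686. They lay between 97756451 and 97870090, in the parts with 17 regions each. The long non-coding gene Gm38709 overlapped 11 of the 56 regions. The longest stretch without a region covered 58480 bp, from 97927591 to 97986070. The first region began 1915 bp into the gene and the last ended 9346 bp before its higher-numbered end.

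**Figure D4:**
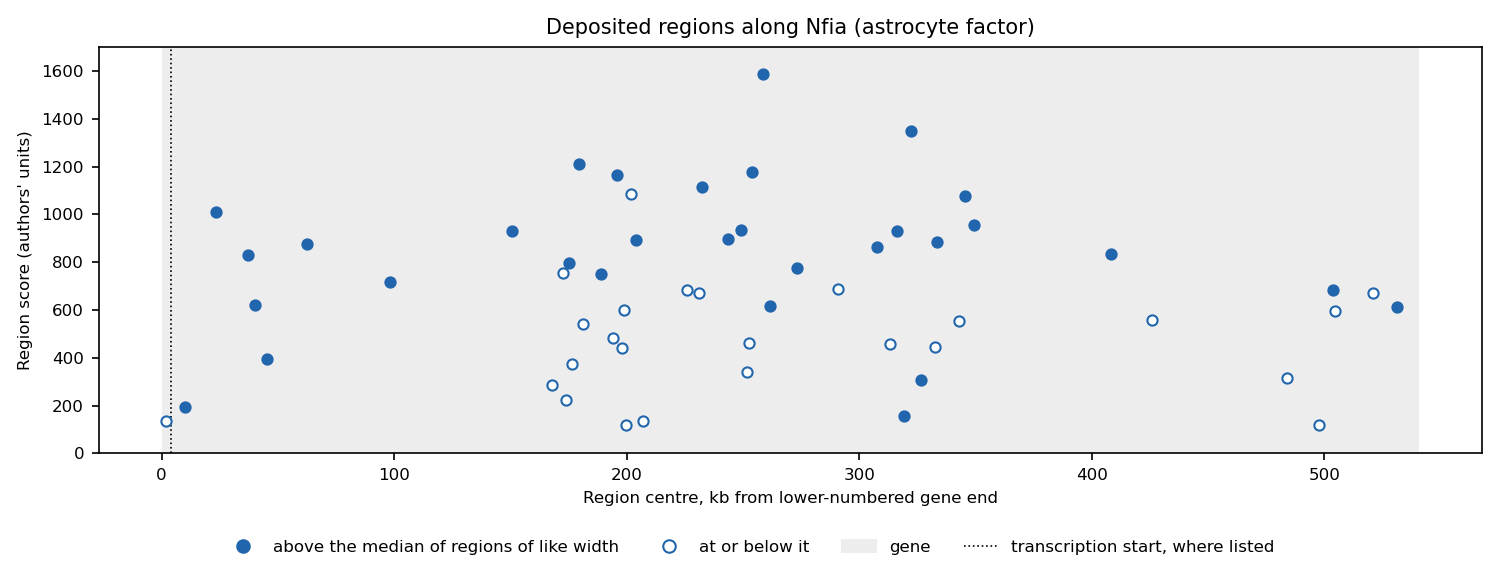
Score (vertical, authors' units) of the 56 Nfia regions against the position of the region centre in kb from the lower-numbered gene end (horizontal), filled where the score is above the median of regions of like width and open elsewhere. The 31 filled points occur along the whole gene, the highest at 1588. No region overlaps the listed promoter, but the nearest lies 1573 bp away, too close to be told apart from the start at this scale.

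Among the oligodendrocyte factors, the neighbours Olig1 and Olig2, 41091 bp apart on chromosome 16, differed in coverage. Olig1 (91269769 to 91271939) had 4 regions, with scores of 460, 458, 397 and 892 at percentiles 72.7, 46.9, 64.2 and 46.5. Olig2 (91225550 to 91228677) had 9, with scores of 283, 973, 428, 263, 452, 262, 447, 187 and 328. Of these, 2 lay above the median of their width, and 4 were at percentiles of 2.0 to 5.9, among them both regions next to the transcription start (91224601 to 91225290 and 91225531 to 91226830). The lowest percentile at Olig1 was 46.5, above that of 6 of the 9 Olig2 regions.

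Sox10 (chromosome 15, 79154913 to 79164490) had 8 regions, with scores of 217, 247, 270, 496, 143, 641, 256 and 132. All but the first lay near or beyond the higher-numbered end, and 6270 bp inside the gene (79155651 to 79161920) held none. The highest, 641 at 79164691 to 79165860, stood at percentile 24.3, and 1 region, with a score of 247, lay above the median of its width.

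Nkx2-2 (chromosome 2, 147176485 to 147195434) had 16 regions, the most among the 8 shorter genes. Ranked in the whole list, these had the lowest median percentile of the 9 members, with single regions at 0.0 to 83.8. Scores ran from 118 to 838 with a median of 303, and 3 regions lay above the median of their width. The highest, 838 at 147179651 to 147180090, stood at percentile 83.8, the highest percentile among the 8 shorter genes. At the higher-numbered end, regions of 400 and 290 bp with scores of 120 and 128 stood at percentiles 0.0 and 0.5, and the region of 400 bp had the lowest percentile of all 123. The antisense gene Nkx2-2os overlapped 12 of its regions. In all, 44 of the 123 regions also overlapped another annotated gene, 3 of them a protein-coding one.

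The windows of the 9 genes held more regions than those of most genes of like length. By number of regions they ranked at 73.7% (Olig1) to 98.9% (Nkx2-2) among genes of like length, ties counting as equal parts above and below. The covered share of the window exceeded the median of genes of like length at all 9. Regions covered 61.5% of the Hes1 window, against a median of 5.82% over 4994 genes of like length. At Olig2 they covered 45.0%, against 6.95%, and at Nfia 7.72%, against 2.52% over 164 genes. The smallest excess was at Sox10, with 16.9% against 14.3%. Up to 40.1% of the comparison genes had no region, and whether the kit targets them is not known here. Among those with a region, the ranks of the number ran from 57.9% (Olig1) to 98.8% (Nkx2-2). The ranks of the covered share then ran from 54.3% (Sox10) to 98.7% (Hes1).

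**Figure D5:**
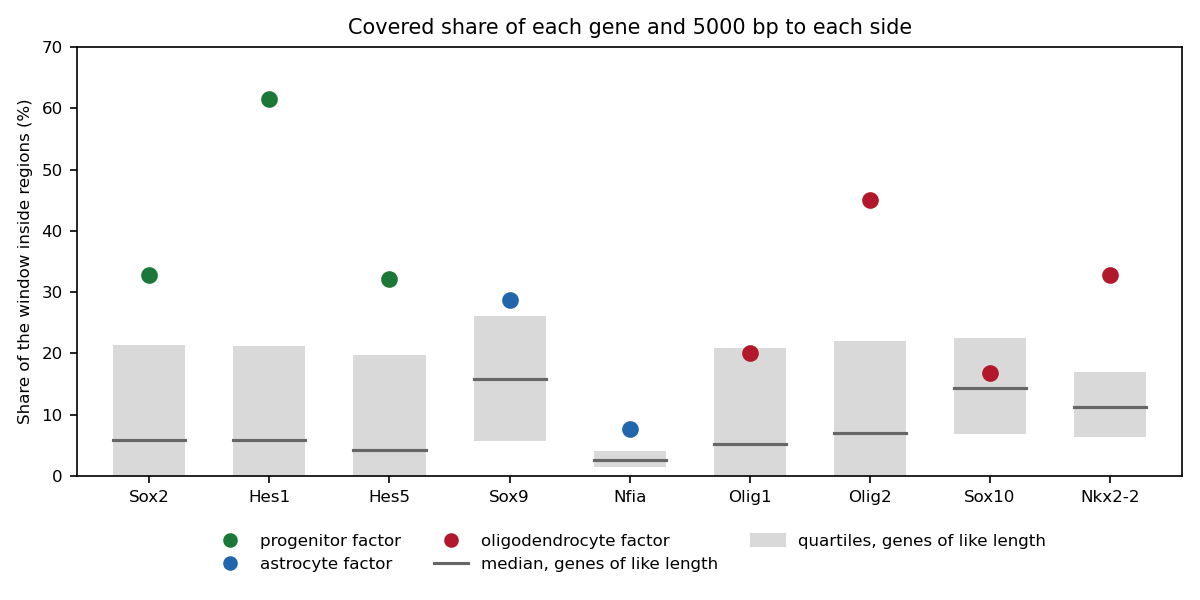
Share of each gene window that lay inside regions (vertical, %, points coloured by role) for the 9 genes (horizontal), with the median and quartiles over protein-coding genes of like length in grey. All 9 points lie above the median line, with Hes1 highest at 61.5%, and those of Olig1 and Sox10 lie within the grey box.

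Relatives of the 9 genes were described from lists that held 48 further genes. All 48 had a region in their window, and regions covered 0.84% to 56.8% of it, with gene length not matched. At a gene end 47 had one, against 76.5% of protein-coding genes, and St18, a zinc finger gene, was the exception. Of the 35 with a promoter entry 24 had one over a promoter, against 60.3% of protein-coding genes. The median percentile lay below 50 at 7 of the 9 members and at 37 of the 48 other listed genes (77.1%), against 53.1% of protein-coding genes with a region, whatever their length. Among genes of like length with a region, the share below 50 averaged 58.5% over the 9 members and 56.2% over the 48 others. It ran from 29.4% to 65.1% for single members and from 28.6% to 66.0% for the others.

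By family, the gene medians lay at 18.1 to 33.9 for Sox1, Sox2 and Sox3, and at 28.1 to 33.7 for Sox8, Sox9 and Sox10, so all 6 SoxB1 and SoxE genes were below 50. Among the 7 Nkx2 genes, 6 were below 50, and Nkx2-4 was at 53.5. In the Hes and Hey family 6 of 9 were below 50, with Hes7, Hey1 and Hey2 at 54.3, 55.8 and 58.9. Among the nuclear factor I genes, Nfia at 57.4 and Nfib at 61.8 were high, and Nfic at 20.6 and Nfix at 29.0 low. Gene length was not matched in these family medians. Olig3 stood at 43.2, between Olig2 and Olig1.

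The highest scores were 1397 at Sox1, 996 at Sox9, 1080 at Olig3, 3351 at Nfix, 1417 at Hes1 and 1570 at Nkx2-3 within the families. Among other genes of the pathways they were 1621 at Rbpj, the Notch effector, 1656 at Stat3, which activates astrocyte genes, and 1757 at Myrf, which drives myelination. No region lay over a listed promoter of Sox1, Olig3, Hes7, Hey2, Nkx2-1, Nkx2-9, Rbpj, Zbtb20, Gfap, Fabp7 and Nkx6-1, besides Nfia and Nkx2-2. Of the remaining pathway lists, 9 of 10 progenitor and Notch genes, 3 of 6 astrocyte genes and 5 of 6 oligodendrocyte genes with an entry had a covered promoter, against the 60.3% of all protein-coding genes with an entry, and no difference between these small lists was tested.

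At the limit of the 5000 bp windows, 1 region lay in the last 1000 bp inside, at Olig2 with a score of 283 (percentile 2.8), and 3 lay in the first 1000 bp outside, with scores of 316 to 546 and percentiles of 3.5 to 55.5.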

How the data were processed

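Genomic DNA of 8 lines was captured with a SureSelect XT kit for mouse methylation sequencing (Agilent), per the labels' protocols. Novoalign 3.7.1, Picard and mm10 are named in the submitters' processing notes. The sources used here do not give how regions were called or whether lines were pooled before calling. The file is a narrowPeak track whose name carries min10 and targets, per the file headers. Its score was deposited by the authors as 1 whole number per region, in 1 list for the series, and was used only to describe and rank regions within that list.

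Gene positions and promoters came from RefSeq tables of GRCm38.p6. Coordinates count from 1. All 9 members matched by symbol. The gene table has no strand, so gene ends are called lower- and higher-numbered. Overlap meant at least 1 bp. Each region was ranked among regions within 50 bp of its width, ties counting as equal parts above and below. Genes of like length had windows within 20% of a member's, and ranks among them counted ties in the same way. Computation used Python 3.11.15, pandas 2.3.3, NumPy 2.4.6 and SciPy 1.17.1. Overlaps and ranks were checked on simulated regions. With 1 list for the series there are no replicates and no test between groups was run. The members, roles and lists were chosen with earlier results of these data known. Named were the 9 members and, in each list, the gene with the highest score and those with no region over a promoter. Genes given for their median percentile, St18 and Pank4 were named after their values were seen. Alternatives varied the window, the overlap, the score minimum, the comparison regions and the promoter definition. The list of sequence targeted by the kit was not used here, and 1 floxed allele of the genotype labels is not reported here.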

Additional observations from a re-analysis of the deposited data

How the results depend on the processing

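Of 59 alternatives, 50 stayed within the exact interval of the reported share or within 1.5 times the reported count. The number of member regions ran from 94 with no flank to 138 with 10000 bp. The number of members with a region over the promoter, 3 of 5 as reported, was 4 of 5 with 1000 bp to each side of the start. It was 1 with scores of at least 200 and 0 with the upper 25% of regions by score. It was also 0 when a region had to cover the whole promoter, and 8 of 9 when 1000 bp around either gene end was used. The share of regions above the median, 35.8% as reported, was 48.8% without width matching, 48.0% against regions at gene ends and 19.4% without Nfia. For the astrocyte factors, 49.2% as reported, it was 66.7% without width matching and 0% without Nfia, which leaves Sox9 alone. The shares for progenitor and oligodendrocyte factors stayed within their wide intervals under each alternative run, but the first, 21.7% as reported, was 43.5% against regions at gene ends and was 39.1% without width matching. The second, 21.6% as reported, was at most 32.4%, against regions at gene ends. The comparisons with regions within 5 Mb and at gene ends, and the sets without Nfia or Nkx2-2, were chosen after seeing the data. No paired analysis was possible because the list holds no value for a single line. The depth of the lines is unknown, and regions below a score of 100 are not in the list, so a stretch without a region may still have been sequenced.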
